A study of Bos grunniens and Bos grunniens x Bos taurus with 6 samples.

Results

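Macrophages of the testis were examined in single-cell RNA libraries of yak (Bos grunniens) and of cattle-yak, the cross of yak with cattle (Bos grunniens x Bos taurus), known for male sterility. A macrophage was a barcode with at least 300 genes, at most 20% mitochondrial UMIs (unique molecular identifiers, each standing for 1 captured RNA molecule) and at least 2 of CD68, CD163, C1QA, C1QB and C1QC detected, with at least 3 UMIs over the 5. At most 1 UMI was allowed over DCN, COL1A2, PECAM1, CDH5, CD3D and RGS5, which mark stroma, endothelium, T cells and mural cells. The rule found 167 macrophages among 31071 cells that passed the gene and mitochondrial filters, out of 40564 barcodes. These 11 genes chose the cells, so their values are given as a description.

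Macrophages are the main resident immune cells of the testis. They lie in the interstitium next to Leydig cells and around the seminiferous tubules near the spermatogonia, take up dead cells, present antigen and are known for a restrained inflammatory state in this organ. The C1q chains form the recognition unit of the classical complement pathway, and CD163 and CD68 are a scavenger receptor and a lysosomal membrane protein of the lineage. CSF1R, the receptor for the growth factor on which macrophages depend, is the classical marker of the lineage that the rule did not use.

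Each library was a 10x Genomics library of testis. Replicates 1 and 2 came from prepubertal yak of 6 months, replicates 3 and 4 from adolescent yak of 18 months, replicate 5 from a yak of 4 years after sexual maturity, and 1 library from a cattle-yak after sexual maturity. The tissue of all groups had been frozen. After thawing it went through enzymes (collagenase IV with hyaluronidase, trypsin as the next step), sieves and culture medium. The labels carry "Germ cell" as a cell line tag although the tissue is testis, and they do not tie replicates to animals. A p-value below thus reads the spread between libraries, which may be technical.

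In the order 6 months (replicates 1 and 2), 18 months (replicates 3 and 4), 4 years and cattle-yak, which is kept below, the libraries held 7, 23, 16, 42, 54 and 25 macrophages. They summed to 24187, 38266, 66623, 75902, 101791 and 81068 UMIs, with medians per macrophage of 2448, 1364, 2033, 1383, 1255 and 3312. Macrophages of the cattle-yak were thus the deepest. Libraries shared between 5 and 16 barcodes over all cells and 0 macrophage barcodes. In replicate 1 of 6 months, 1 of the 7 macrophages held 8465 of the 24187 UMIs, with 3 UMIs over the 5 macrophage markers, 1 of CD74 and 37 of the germ cell gene UCHL1.

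The rule genes were carried mostly by C1q. C1QA had 1663 UMIs in 159 of the 167 cells, C1QB 1238 in 148 and C1QC 1316 in 154, and 133 cells held all 3 chains. CD68 had 24 UMIs in 15 cells and CD163 had 27 in 16, so 140 cells were chosen on C1q alone. The other 2 that lacked C1q are described further on. The 5 markers summed to between 3 and 214 UMIs per cell, with a median of 15. For the 14 cells just inside the threshold, with 3 UMIs, CSF1R stood at 296 UMIs per 1000000 UMIs of those cells (CPM) and CD74 at 7325. For the 24 barcodes just outside it, with 2 UMIs over 2 markers, CSF1R stood at 106 CPM and CD74 at 4575.

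The share of macrophages among kept cells differed between libraries by more than counting error. The shares were 0.0876% (exact Clopper-Pearson 95% interval 0.0352 to 0.180) and 0.383% (0.243 to 0.574) at 6 months. They were 0.377% (0.216 to 0.611) and 0.997% (0.720 to 1.35) at 18 months, 1.13% (0.846 to 1.47) at 4 years and 0.655% (0.425 to 0.966) in the cattle-yak. The lowest share was that of replicate 1 and the highest that of 4 years. The ages overlapped, since replicate 2 of 6 months was above replicate 3 of 18 months. The 6-month mean was 0.235% ± 0.209 (SD, n = 2) and the 18-month mean 0.687% ± 0.439 (SD, n = 2). The exact two-sided permutation test gave p = 0.667, and 2 against 2 libraries cannot reach 0.05 in it. Among kept cells with at least 1000 UMIs, each thinned to 1000, the share at 4 years was 0.797%, below that of replicate 4 (0.813%). Shallower cells were left out of this share, among them 20 of the 54 macrophages at 4 years, 13 of the 42 in replicate 4 and 0 in the cattle-yak. Intervals here and below cover counting error only.

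**Figure D1:**
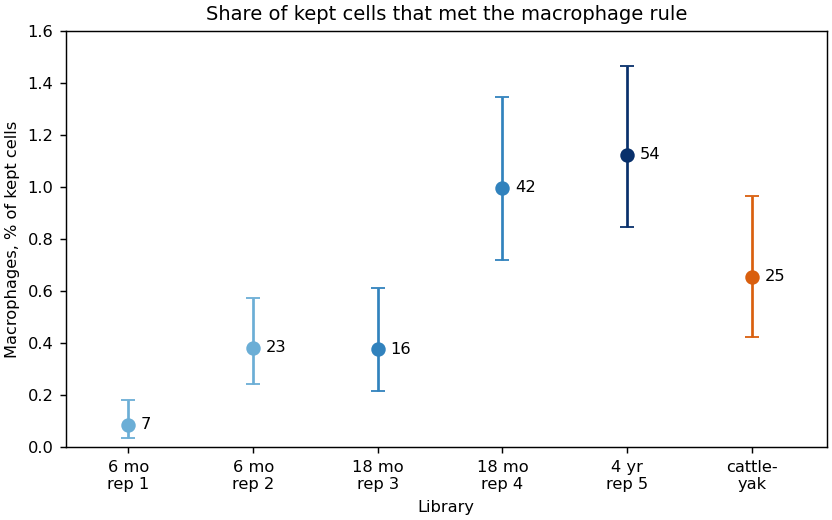
Macrophages as a percentage of kept cells in each of the 6 libraries, with the exact 95% binomial interval as bars and the number of macrophages beside each point. The 4-year library (54 macrophages, 1.13%) stands highest and replicate 1 of 6 months (7 macrophages, 0.0876%) lowest.

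The label was checked against genes outside the rule. CSF1R (ENSBGRG00000020676 in the files) had 7, 14, 28, 44, 58 and 58 UMIs in the macrophages of the 6 libraries, that is 289, 366, 420, 580, 570 and 715 CPM. The highest level among 6 reference classes gated on their own markers (stroma, endothelium, lymphocytes, mural, Sertoli and germ cells) was 1.39 CPM, in stroma. MSR1, the class A scavenger receptor, had 207, 235, 360, 316, 305 and 469 CPM, against at most 1.12 CPM in a reference class (germ cells). Both genes were present in the macrophages of every library. With each cell of at least 1000 UMIs thinned to 1000, and shallower cells left out, the share of macrophages with a CSF1R UMI was taken. It was 16.7%, 26.7%, 60%, 44.8%, 41.2% and 36%, over 6, 15, 15, 29, 34 and 25 cells. The same share among lymphocyte-gated cells was 0% in 5 libraries and 0.478% in the cattle-yak.

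For 33 of 1811 genes with a symbol and at least 20 UMIs in macrophages (1.82%), the median CPM over the 6 libraries was at least 10-fold that of the highest reference class. A class with fewer than 3 UMIs was set to 3 UMIs. Since the cells were chosen by their RNA, this is a description. CSF1R led with a median ratio of 357, MSR1 followed with 278 and CLEC7A, the beta-glucan receptor dectin-1, with 121. The next by ratio were CD1E, a lipid-antigen molecule of dendritic cells and related myeloid cells (118), and the chemokine CXCL8 (108). Then came CFP, which encodes the complement factor properdin (74.9), and the inhibitory lectin receptor CLEC12A (63.3). MILR1, an inhibitory receptor known from mast cells, stood at 63.3, NCF1, a subunit of the phagocyte NADPH oxidase, at 45.7, and TNFSF13B, the B cell factor BAFF, at 43.8. The inflammasome sensor NLRP3 (43.4), the fractalkine receptor CX3CR1 (40.6), the lipid-sensing receptor TREM2 (25.3), the kinase BTK (24.7) and complement C3 (24.2) closed the 15 highest. These genes were sparse: CX3CR1 had 22 UMIs in all (1, 2, 9, 5, 0 and 5), so its absence at 4 years allows up to 3 UMIs in 101791.

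**Figure D2:**
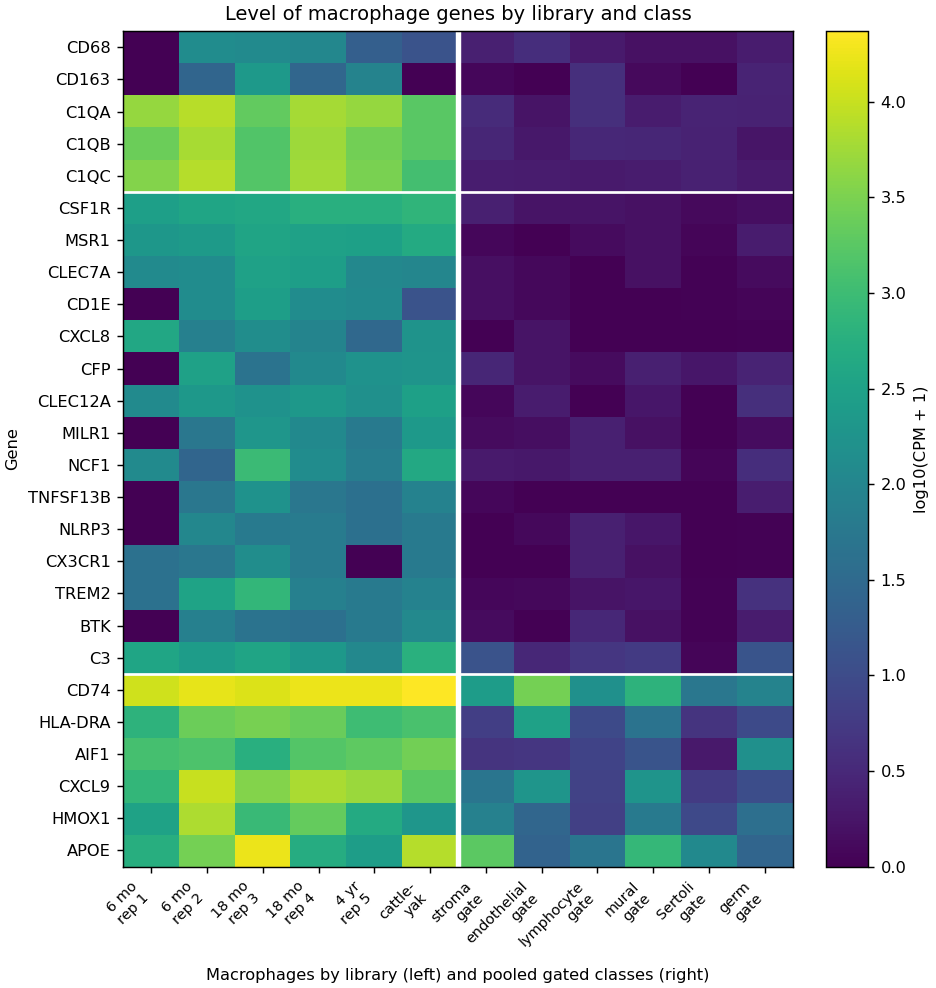
Gene levels, as log10 of CPM plus 1, in the macrophages of each library (left of the white line) and in 6 gated classes pooled over libraries (right). Rule genes are on top, the 15 genes with the highest ratio over the classes in the middle, and CD74, HLA-DRA, AIF1, CXCL9, HMOX1 and APOE below. CSF1R and MSR1 lie at 207 to 715 CPM in every library and under 2 in every gated class.

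Markers of other cell types were counted in the same cells. The lymphocyte markers CD3D, CD5 and LCK, the B cell markers CD79A, CD79B, PAX5 and MZB1, the neutrophil genes S100A8 and S100A9, and the dendritic cell genes FLT3, CLEC9A, XCR1, ZBTB46 and CCR7 had 0 UMIs among 387837. The lists summed to 84 UMIs for lymphocytes (64 of NKG7, a gene of cytotoxic granules), 40 for B cells (36 of BANK1), 41 for neutrophils (37 of CSF3R, the G-CSF receptor) and 67 for dendritic cells (47 of CD1E). The B cell list stood at 41.3, 78.4, 105, 132, 29.5 and 197 CPM. It was above the other kept cells in every library (3.15, 11.4, 20.1, 4.33, 4.48 and 11.2 CPM). The dendritic list had 0, 209, 360, 184, 118 and 111 CPM, against 32.7, 29.9, 50.1, 28.4, 28.6 and 44.3 CPM in those cells. Lymphocyte and neutrophil lists were above the other cells in some libraries and below them in others. Stroma had 34 UMIs, endothelium 51, mural cells 51, Leydig cells 7, mast cells 3 and erythroid cells 0. The rule allowed at most 1 UMI over CD3D, DCN, COL1A2, PECAM1, CDH5 and RGS5, which are members of these lists. The 0 of CD3D and the lymphocyte, stromal, endothelial and mural sums were thus limited by the choice of cells. Sertoli genes were present: 6 of 6 measured members of that list had a UMI, with 291 UMIs in all, of which 247 were INHA, the inhibin alpha subunit. Their summed level in macrophages was 1985, 3450, 210, 922, 68.8 and 247 CPM. In all other kept cells it was 3566, 4992, 592, 3202, 92.1 and 193 CPM, so it was lower in macrophages than in other cells in every library but the cattle-yak. Germ cell genes (10 of 11 with a UMI, 199 UMIs) summed to 1819, 52.3, 750, 290, 786 and 12.3 CPM in macrophages and to 126, 95.6, 1214, 1141, 1389 and 295 CPM in other cells. The high value in replicate 1 of 6 months rests on the cell with 37 UCHL1 UMIs.

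In 15 of the 167 cells, the marker list of another class had at least as many UMIs as the 5 macrophage markers: Sertoli cells in 7, germ cells in 4, lymphocytes in 2 and endothelium in 2. More than 3 times the median UMIs of their library's macrophages were found in 11 cells. INHA reached between 23 and 46 UMIs in 5 cells, of replicates 1, 2 and 4, and UCHL1 reached 35 UMIs in a cell of replicate 3 that held 17242 UMIs. No doublet caller was used. The age test, the comparison of the cattle-yak with 4 years and some gene levels were also computed without the 15 cells and without the 11. Shares of macrophages were recomputed only without the 15, and the interaction test only without the 11. Cells high in INHA or UCHL1 were not left out as a set of their own. Counts of cells with a gene and thinned percentages of genes were not recomputed.

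The antigen presentation gene CD74 was found in nearly every macrophage. CD74, the invariant chain that guides class II molecules, had 279, 620, 908, 1303, 1772 and 1898 UMIs, or 11535, 16202, 13629, 17167, 17408 and 23412 CPM. It was detected in 165 of 167 cells, and the cells without it held 517 and 576 UMIs. The cattle-yak was highest, with an interval of 22371 to 24490, and replicate 1 lowest, with 10221 to 12971. Thinned to 1000 UMIs, between 86.7% and 100% of macrophages had a CD74 UMI in each library, against 9.39% to 12.9% of lymphocyte-gated cells. HLA-DRA, the alpha chain of a class II molecule, had 662, 2430, 2942, 2371, 1032 and 1295 CPM. Class II is also carried by endothelium, where CD74 stood at 2905 CPM. Without the 15 cells led by another class, CD74 in replicate 1 was 22401 CPM and CSF1R 679 CPM, while the cattle-yak stood at 25849 and 759 CPM.

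AIF1, which encodes the actin-binding macrophage protein IBA1, had 1199, 1411, 570, 1568, 1955 and 2738 CPM. The cattle-yak was highest, and the libraries of 6 and 18 months overlapped. AIF1 did not pass the test of age reported below.

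CXCL9, a chemokine induced by interferon gamma that draws T cells, marked a large part of the macrophages. It had 19, 387, 243, 487, 528 and 150 UMIs, or 786, 10113, 3647, 6416, 5187 and 1850 CPM, and was found in 6 of 7, 20 of 23, 12 of 16, 29 of 42, 38 of 54 and 5 of 25 cells. At least 5 UMIs were found in 2, 14, 7, 14, 17 and 2 cells. In the cattle-yak, 137 of the 150 UMIs lay in 1 cell. The endothelial gate, where it was highest among the references, stood at 190 CPM. Thinned to 1000 UMIs, CXCL9 was found in 66.7%, 80%, 53.3%, 62.1%, 52.9% and 16% of macrophages, the last with an exact 95% interval of 4.54% to 36.1%, and in at most 1.64% of lymphocyte-gated cells of any library. IFI6, another interferon-induced gene, was highest in the cattle-yak (455, 784, 585, 672, 904 and 1727 CPM), as it was in the other cells there (798 CPM, against 160 to 198 in the yak libraries).

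HMOX1, the haem oxygenase of cells that clear red cells and haem, had 8, 256, 61, 167, 48 and 16 UMIs, or 331, 6690, 916, 2200, 472 and 197 CPM. In replicate 2 of 6 months, 127 of the 256 UMIs lay in 1 cell and 68 in a second. Cells with at least 5 UMIs numbered 0, 5, 5, 8, 1 and 0. The 6-month libraries were the highest and one of the lowest, so the ages overlapped. SLC40A1, the iron exporter ferroportin, had 165, 497, 360, 158, 118 and 24.7 CPM and was also highest in replicate 2. The scavenger receptor of this axis is CD163, a rule gene.

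APOE, the lipid carrier protein of macrophages, split the libraries. It had 13, 111, 1181, 39, 27 and 615 UMIs, or 537, 2901, 17727, 514, 265 and 7586 CPM. In replicate 1 it was below the level in the other cells (695 CPM). At least 5 UMIs were found in 1, 11, 6, 1, 0 and 19 cells. Thinned to 1000 UMIs, APOE was found in 50%, 73.3%, 66.7%, 13.8%, 14.7% and 76% of macrophages, against 0.730% to 7.32% of lymphocyte-gated cells. The stromal gate, where it was highest among the references, stood at 1819 CPM and the mural gate at 801 CPM, both above the macrophages of replicate 1, replicate 4 and 4 years. Replicate 2, replicate 3 and the cattle-yak were high and replicate 4 and 4 years low, so the 18-month libraries stood on both sides.

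The high APOE sum of replicate 3 came from 2 cells, the same 2 that lacked C1q. They held 1127 of the 1181 APOE UMIs and 246 of the 250 of SPP1, which encodes osteopontin. They also held 49 of 52 of TREM2, 44 of 46 of the lectin LGALS3, 60 of 63 of NCF1, all 37 of the bone matrix gene DMP1, all 21 of the macrophage elastase MMP12 and all 9 of the lipoprotein lipase LPL. C1QA, C1QB, C1QC and CXCL9 were at 0 in both, and CD74 was present (100 and 170 UMIs). The cells held 6390 and 12061 UMIs. Without them APOE in replicate 3 stood at 1121 CPM over 14 cells and CXCL9 at 5044 CPM. SPP1 had 0, 2, 250, 0, 0 and 0 UMIs over the 6 libraries.

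**Figure D3:**
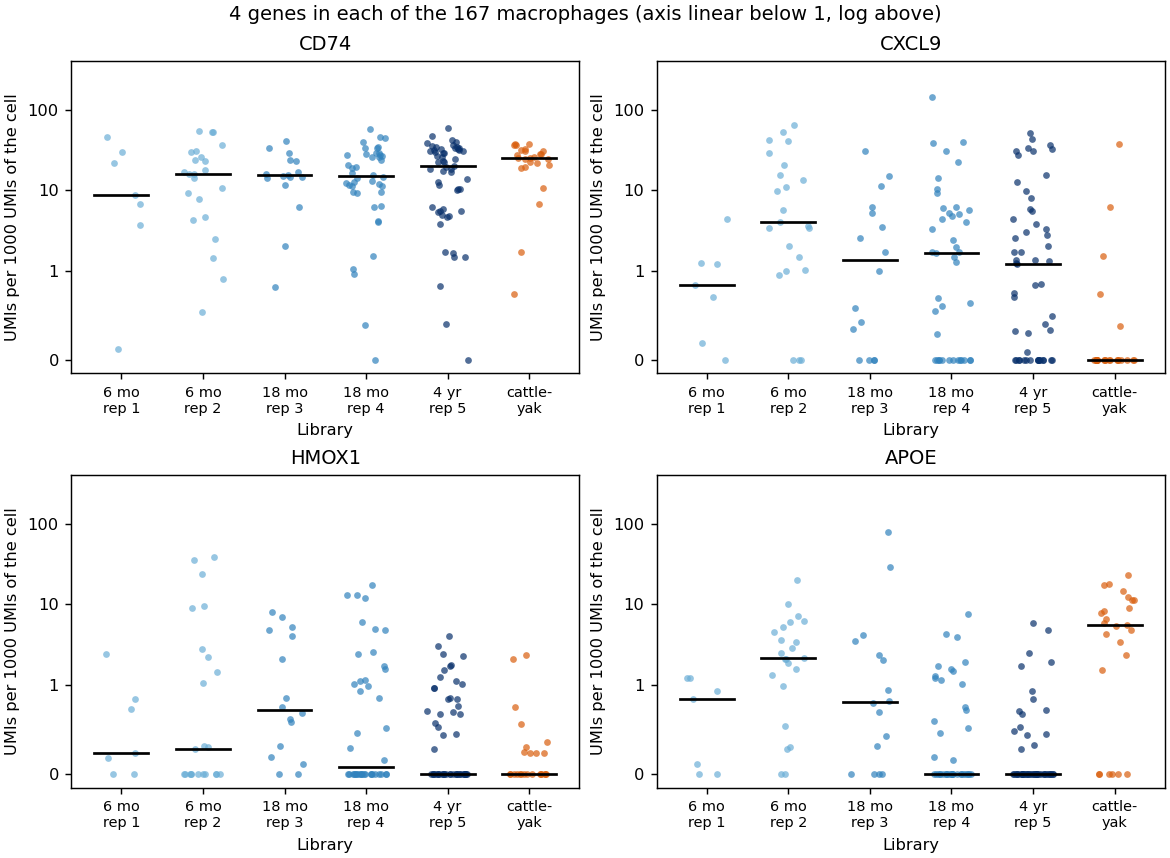
CD74, CXCL9, HMOX1 and APOE in each of the 167 macrophages, as UMIs per 1000 UMIs of the cell (linear below 1, log above), by library; black bars are medians. CD74 is present in 165 cells, CXCL9 is found in 5 of 25 cells of the cattle-yak and APOE in 19 of them.

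Age was tested between 6 and 18 months on UMIs summed over the macrophages of each library. The design asked for at least 20 macrophages in each of the 4 libraries, which replicates 1 and 3 (7 and 16) did not reach, so this test without a minimum was added after the data were seen. With edgeR's quasi-likelihood test, 0 of 684 genes passed a Benjamini-Hochberg adjusted p of 0.05 (0%), and 53 had an unadjusted p below 0.05. DESeq2 also called 0, with 27 below 0.05 unadjusted. Counts were simulated with a dispersion (spread between libraries) of 0.2, a set value not fitted to these libraries. On them the test recovered 27.0% of 4-fold changes and 99.9% of 16-fold changes. At that spread, changes of 4-fold or less would thus mostly go uncalled. Recovery at the spread of these libraries was not measured, and S100A4, at a log2 fold change of 6.98, was not called. The count is set by single libraries and cells: without replicate 4 there were 18 calls, without replicates 1 or 3 there were 4 each, and without cells over 3 times the median UMIs there were 14 of 400.

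The interaction test asked whether an age difference was unlike that of lymphocyte-gated cells in the same libraries. It called 0 of 1427 genes (0%), with a lowest edgeR adjusted p of 0.0675 and 86 genes below 0.05 unadjusted, and DESeq2 called 0. It gave between 1 and 3 calls when any 1 library was left out.

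Immediate early genes are switched on within minutes of stimulation or tissue digestion. Genes of the dissociation and immediate early list, which holds AP-1 and KLF transcription factors, feedback inhibitors and also the abundant chaperones HSPA8 and HSP90AA1, stood higher at 18 months without passing the test. All 13 members tested were higher at 18 months, with 0 called and a median log2 fold change of 1.24, against 331 of 684 genes higher and a median of -0.02 over all genes tested. JUN, a subunit of AP-1, stood at 3556 and 2744 CPM in the younger and at 8406 and 6192 CPM in the older yaks (log2 fold change 1.24, SE 0.48, edgeR adjusted p = 0.598). KLF2, a zinc finger factor, stood at 1736 and 679 against 3107 and 5283 CPM (1.86, SE 0.65, edgeR adjusted p = 0.595). DUSP1, a phosphatase that turns off MAP kinases, had 703 and 1542 CPM against 3467 and 3281 CPM. For these 3 genes the ages did not overlap, and DUSP1 was named after its values were seen. The tested members whose ages overlapped were FOS, JUNB and HSPA8. FOS, for example, had 1902 and 993 CPM against 1801 and 2332 CPM. How many of all 684 genes had ages that did not overlap was not counted.

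The 13 genes together summed to 14801, 12100, 27183, 30737, 11150 and 27261 CPM in macrophages. In all other kept cells they summed to 9700, 9650, 14660, 13451, 6049 and 13291 CPM. The order was alike in both: 18 months and the cattle-yak were high, 6 months and 4 years low, and macrophages were above the other cells in each library. Those other cells pool all classes. Over all libraries JUN stood at 7453, 6231 and 5664 CPM in the endothelial, mural and stromal gates. In the Sertoli, lymphocyte and germ gates it stood at 3048, 1873 and 219 CPM. A high level was thus not particular to macrophages. Of these 13 genes none was at 0 in any library. The part of tissue handling in the difference was not tested. In every alternative with the 4 libraries, all members tested were higher at 18 months, and the median ranged from 0.84 to 1.76. With no filter on low counts the median over all genes was itself 1.34, against 1.48 for the 19 members then tested. Without replicate 1 it was 15 of 16.

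**Figure D4:**
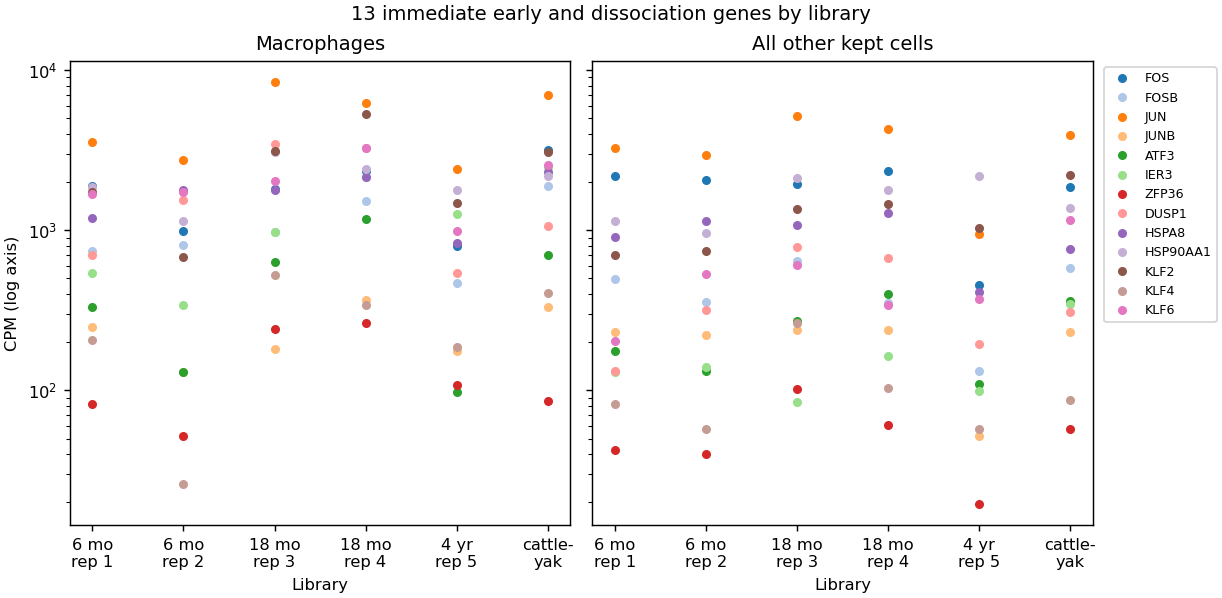
CPM (log axis) of 13 immediate early and dissociation genes in macrophages (left) and in all other kept cells (right) of each library, with points coloured by gene. JUN lies at 2744 and 3556 in macrophages at 6 months, at 6192 and 8406 at 18 months, at 2427 at 4 years and at 6969 in the cattle-yak.

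Genes lower at 18 months included TIMP2, a metalloproteinase inhibitor, with 8104, 7265, 555 and 2134 CPM in replicates 1 to 4, which did not pass (edgeR adjusted p = 0.532). In the other kept cells TIMP2 stood at 13304, 9445, 951 and 5147 CPM in these 4 libraries. APOA1, an apolipoprotein, had 5623, 4495, 165 and 1107 CPM in macrophages and 7811, 5569, 568 and 3387 CPM in the other cells. Both were chosen after their values were seen. Values of INHA were 1571, 3345, 105 and 817 CPM in macrophages and 3325, 4862, 346 and 2768 CPM in the other cells. TIMP2, APOA1 and INHA passed as lower at 18 months in 2 of the alternatives, without cells over 3 times the median UMIs (edgeR adjusted p = 0.00450, 0.00503 and 0.00450) and without replicate 4 (0.00684, 0.00244 and 0.0105). In the other alternatives the adjusted p of TIMP2 lay between 0.388 and 0.991. Log2 fold changes of TIMP2, APOA1 and INHA were -2.50, -2.97 and -2.45 in the main test. Without cells led by another class they were -1.25, -1.81 and -0.91. For all 3 the macrophage level was below that of the other cells in each of the 4 libraries, and the part of RNA from other cells was not tested.

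In the remaining lists no member passed the test of age. Of 7 interferon response genes tested, 4 were higher at 18 months (median log2 0.10). Both antigen presentation genes tested were higher (0.43), as were 4 of 5 lineage genes outside the rule (0.60), 3 of 4 in lipid handling (0.55), 3 of 4 in efferocytosis (0.32) and all 3 macrophage transcription factors tested (1.83). In lysosome genes 2 of 4 were higher (-0.02), and in iron and haem 0 of 3 (-1.14). Complement genes were 1 of 2 (0.17), Fc receptor signalling genes 2 of 2 (0.80) and growth factor receptors 2 of 2 (0.65). Higher at 18 months were also 2 of 2 cell cycle genes (0.43), 1 of 1 in glycolysis (0.30), 1 of 3 in electron transport (-0.08), 0 of 2 resident and scavenger genes (-0.85) and 0 of 1 inflammatory gene (-1.06). With so few members tested, these medians describe single genes, and single libraries or cells set their sign. Of all 18 lists, 13 had a median of the other sign in at least 1 alternative. Lipid handling was 0 of 4 (-1.48) without replicate 3 and 0 of 2 (-1.20) with at least 5 marker UMIs, and without replicate 4 its members APOE, SPP1 and LGALS3 passed as higher. Without replicate 2, iron and haem was 2 of 3 (0.70), resident and scavenger genes 2 of 2 (1.56) and efferocytosis 2 of 5 (-0.03). The 5 lists whose median was above 0 in every alternative run were lineage genes outside the rule, macrophage transcription factors, growth factors and their receptors, cell cycle, and dissociation and immediate early. S100A4 was the 1 monocyte gene tested, and its 24 and 19 UMIs at 18 months, against 0 and 0, lay in 2 cells of replicate 3 and 1 of replicate 4.

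The cattle-yak was compared with the yak of 4 years, the other animal after sexual maturity. With 1 library each there is no test, species, animal and library cannot be told apart, and differences are ratios of CPM with exact counting intervals. A gene was counted when the ratio was at least 4-fold, the interval excluded 2-fold and the higher library had at least 20 UMIs. Of 856 genes with 20 UMIs in either, 49 were higher in the cattle-yak (5.72%, 30 with a symbol) and 159 higher at 4 years (18.6%, 105 with a symbol).

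The genes higher in the cattle-yak were mostly above the rest of that library: 34 of the 49 were over 2-fold the level in that library's other cells, and 5 were at or below it. They were chosen for a high level in cattle-yak macrophages, which this ratio also uses. The share of all compared genes above or below the other cells was not counted, here or for 4 years. SMARCA1, a chromatin remodelling ATPase, had 26 UMIs against 1 at 4 years, a ratio of 32.6 (5.36 to 1338). APOE followed at 28.6-fold (19.5 to 43.8). The peptide hormone gene CCK had 20 UMIs in 9 cells against 1, a ratio of 25.1 (4.02 to 1041). LTC4S, which makes leukotriene C4 and is known from myeloid cells, had 370 CPM against 39.3, and SQSTM1, an autophagy receptor, 913 CPM against 88.4. MAGED2 had 715 CPM against 78.6, SRSF6, a splicing factor, 308 against 29.5, and GADD45A, a stress-induced gene, 271 against 29.5. CRYAB, a small heat shock protein, had 26 UMIs against 2, but 24 of them lay in 1 cell, and with at most 10% mitochondrial UMIs its ratio was 0.898.

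Of the function lists, counted as higher in the cattle-yak were 0 of 5 lineage genes outside the rule, 0 of 2 each in the monocyte, antigen presentation and efferocytosis lists, 1 of 2 in complement (C3), 1 of 2 in lipid handling (APOE) and 1 of 3 macrophage transcription factors (ID2). Also among the 49, NCF1 and PLD4 are named here, with more on C3, after their values were seen. C3 had 49 UMIs in 16 cells, or 604 CPM, against 108 CPM at 4 years (5.59-fold, 2.87 to 11.9). NCF1 had 432 CPM against 68.8 (6.28-fold, 2.75 to 16.7), and PLD4, an endolysosomal nuclease of myeloid and plasmacytoid cells, 839 against 187 (4.49-fold, 2.67 to 7.92). In the earlier libraries C3 stood at 372, 261, 360 and 211 CPM, so 4 years was the lowest of the 6 and the cattle-yak the highest. Of 12 dissociation and immediate early genes with 20 UMIs, 2 were counted as higher in the cattle-yak, against 5.72% of all genes. FOSB had 1887 CPM against 472 at 4 years and ATF3 703 against 98.2. The other cells differed in the same direction, at 584 against 132 CPM for FOSB and 360 against 109 for ATF3.

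The genes higher at 4 years stood otherwise against the other cells of their library. Of the 159, 131 were at or below the level in the other cells of the 4-year library (median ratio to them 0.659), 6 were over 2-fold it, and 60 had 0 UMIs in cattle-yak macrophages. For 39 of the 159, over 50% of the 4-year UMIs lay in 1 cell. Among the 49 higher in the cattle-yak, 7 had over 50% of their cattle-yak UMIs in 1 cell. The largest were mostly genes known from male germ cells. TUBA3D, a testis tubulin, had 107 UMIs in 25 of 54 macrophages and 0 in the cattle-yak, at least 28.4-fold lower there against a floor of 3 UMIs. Its level of 1051 CPM at 4 years compares with 1765 CPM in the other cells. CLGN, a sperm protein chaperone, had 1002 CPM against 2013 in the other cells, DDX25, a germ cell helicase, 658 against 921, and CALR3 540 against 878. YBX2, a germ cell RNA-binding protein, CRISP2, a sperm protein, and BTBD17, C11orf94, PDCL2 and LCA5L, also at 0 in the cattle-yak, had 413 to 501 CPM against 469 to 1037. Germ-gated cells numbered 802 of the 4-year library's kept cells and 65 of the cattle-yak's. The part of RNA from germ cells in these ratios was not tested.

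With a symbol and over 2-fold the other cells, 2 genes were higher at 4 years. ISG15, an interferon-induced ubiquitin-like protein, had 33 UMIs against 5, of which 25 lay in 1 cell, and MYDGF, a growth factor of myeloid cells, 46 against 7, of which 34 lay in 1. CXCL9 was below the threshold, at 5187 CPM (4754 to 5649) against 1850 (1566 to 2171).

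**Figure D5:**
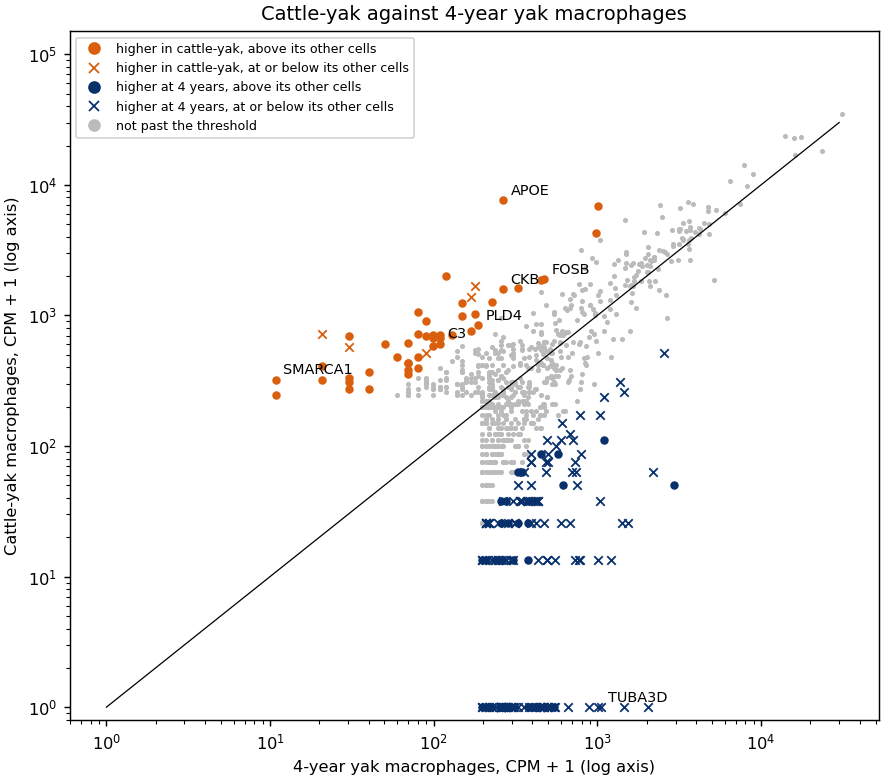
CPM plus 1 in macrophages of the 4-year yak (x) and of the cattle-yak (y), both on log axes, for the 856 genes with at least 20 UMIs in either; the line marks equal levels. Circles are counted genes above the level in the other cells of the higher library and crosses those at or below it, which are 5 of 49 for the cattle-yak and 131 of 159 for 4 years. Such a share was not counted over all 856 genes.

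The macrophages of the cattle-yak divided into cells with and without APOE. In 19 cells APOE had between 5 and 83 UMIs (median 28), and in the other 6 it had 0. The 19 cells held 1 of the 150 CXCL9 UMIs, and 4 of the 6 held the other 149. Of these, 137 lay in 1 cell, and the others held 9, 2 and 1, so the CXCL9 level of the 6 rests mostly on 1 cell. C3, NCF1, SMARCA1, CCK and LTC4S had 49, 35, 26, 20 and 30 UMIs in the 19 cells and 0 in the 6. GNAS, a G protein subunit, stood at 8147 CPM in the 19 and 1363 in the 6, and MSR1 at 548 against 130. CSF1R (731 against 649), AIF1 (2680 against 2986) and HLA-DRA (1294 against 1298) lay close together, while CD74 was higher in the 19 (24914 against 17010). Among the 6, a cell of 4067 UMIs held 7 UMIs of CD74 and a cell of 1357 UMIs held 1. Both had 0 of HLA-DRA. The rule genes C1QA, C1QB and C1QC stood at 1096, 1569 and 853 CPM in the 19 and at 4609, 2662 and 2337 in the 6, but 1 of the 6 cells held 88 of their 148 marker UMIs. Without that cell the 6 became 5 with 2558, 1323 and 1411 CPM, and C1QB was then higher in the 19. Median depth was 3312 UMIs in the 19 and 2494 in the 6, whose sum was 15403 UMIs, so a gene at 0 there may reach 3 in 15403. The split was made after the cells were seen and rests on 1 library. Over all libraries 9 macrophages had at least 5 UMIs of both APOE and CXCL9, in replicates 2 (5), 3 (3) and 4 (1).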

How the data were processed

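The authors deposited UMI counts as they left Cell Ranger, with no normalisation (version 5.0.0 per the file headers, 2.1.1 per the submitters' processing notes). No genome build is named in what was used here. Symbols were taken from the deposited features, since 0 identifiers were found in the RefSeq table, and no position or sequence is printed. A symbol borne by several features was not used as a name. The lowest barcode held 500 UMIs.

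Macrophages and the reference gates (at least 2 of a class's genes, 3 UMIs over them, at most 1 UMI over the macrophage markers, no second gate) were found in Python 3.11.15 with scipy 1.17.1. Counts were summed per library. CPM is UMIs per 1000000 of that sum. Ages were tested with edgeR 4.0.16 in R 4.3.3 (TMM, filterByExpr, glmQLFit, Benjamini-Hochberg) and with DESeq2 1.42.0. The 11 rule genes were left out of tests. In the fit, the age test holds 2 libraries a group. The age test was tried on simulated data (5 simulations, 683 to 757 genes, dispersion set to 0.2). Doublets were not called.

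Members and lists were chosen with earlier results of these data known. Of the 18 function lists and 12 cell type lists, many members carry no symbol in the files. Genes named were, for age, those passing with libraries apart (12 each way) and passing list members, for the interaction 5 each way, for the cattle-yak the 10 largest ratios each way (ties at 0 by UMIs), for levels the rule genes and the 15 highest over the gates, and per list its 2 highest by mean CPM. Some genes these rules name are not reported here. Further genes are marked as chosen later or are shown for what they show of other cells.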

Additional observations from a re-analysis of the deposited data

Results flagged for a closer look

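Barcodes above the mitochondrial filter were outside every comparison, and some met the macrophage markers. In replicate 3 of 18 months 8 such barcodes had over 20% mitochondrial UMIs, and in the 4-year library 16 did, both above the 3 counts that a count of 0 allows. The other 4 libraries had 0, 2, 3 and 2. No groups of 4 or more libraries existed in which a library far from the others could be looked for.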

How the results depend on the processing

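No paired analysis was possible because the 6-month libraries are numbered 1 and 2 and the 18-month libraries 3 and 4, so no number is shared and no replicate block could be fitted. The count of genes changed from 6 to 18 months, 0 of 684, was also 0 with DESeq2, without TMM, with at least 5 marker UMIs, with at most 10% mitochondrial UMIs, without mitochondrial genes and without members led by another class. It was 14 without cells over 3 times the median UMIs (7 in each direction), 2 without a filter on low counts (of 10313), and between 0 and 18 when 1 replicate was left out, where the lone library of an age is assumed to vary like the others. The interaction count, 0 of 1427, was 2 with at least 5 marker UMIs, 4 without cells over 3 times the median UMIs, 3 without a filter, and between 1 and 3 when 1 replicate was left out. The share of macrophages stayed within its main interval in all 6 libraries with at least 5 marker UMIs, with at most 40% mitochondrial UMIs and without members led by another class. Among cells with at least 1000 UMIs, thinned to 1000, it left the interval at 4 years only (0.797%). The count of genes higher at 4 years than in the cattle-yak was 59 without cells over 3 times the median UMIs, against 159, and between 110 and 152 otherwise. That of genes higher in the cattle-yak was between 36 and 51. CCK had 0 UMIs at 4 years and thus no ratio in 3 alternatives, and CRYAB reversed with at most 10% mitochondrial UMIs (0.898). The cause of these differences was not tested. Of 259 levels of CSF1R, MSR1, CD74, AIF1, CXCL9, HMOX1 and APOE recomputed, 67 left their counting interval.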

Other observations

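Metabolic and division genes were also measured in macrophages. TUBA1B, a tubulin, had 1116, 1516, 2026, 2148, 923 and 2751 CPM, against 131 to 1926 CPM in the reference classes. HMGB2, a chromatin protein of dividing cells, had 289, 26.1, 255, 65.9, 147 and 136 CPM, under the germ-gated cells (464 CPM). The glycolytic enzymes PKM and ENO1 had 71 and 50 UMIs over all 167 cells, and the ATP synthase subunits ATP5F1A and ATP5F1B 112 and 128. No member of these lists passed the test of age or the 4-fold threshold between the cattle-yak and 4 years. Of inflammatory genes, IL18 had 6, 34, 9, 33, 14 and 6 UMIs and was highest in CPM in replicate 2 (889 CPM). CXCL8, a neutrophil chemokine, had 10, 3, 9, 7, 3 and 14 UMIs in 18 cells. Lysosomal CTSH and GRN had 259 to 679 and 165 to 444 CPM over the libraries.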
